A study of Mus musculus with 4 samples.

Results

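The miR-130/miR-301 family of the mouse is made from 4 hairpins, miR-130a, miR-130b, miR-301a and miR-301b, and each hairpin gives a 5p and a 3p mature arm. These 8 mature miRNA, with the prefix mmu- for mouse in the files, were taken by name from the 1966 listed in the deposited count tables, and all 8 passed the filter on low counts that left 496 miRNA for testing. The study sequenced small RNA of cultured cortical neurons, 2 libraries from WT and 2 from TgAD embryos, a transgenic mouse model of Alzheimer's disease. Cortices were taken at E16.5 (embryonic day) and the cells then differentiated for 5 days in culture, untreated. Per the study's methods they were plated with serum and then kept in medium free of it. The transgenes of TgAD neurons are driven by the mouse prion promoter, which is mainly active in central neurons, and WT neurons do not carry them. Each embryo was cultured separately and genotyped, so that a library comes from a single culture per the study's methods.

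A miRNA hairpin is cut by Dicer into a duplex of the 5p and the 3p arm. One arm, the guide, is loaded into Argonaute, pairs with target transcripts through its seed (bases 2 to 8) and lowers their expression, while the other arm, the passenger, is mostly degraded. The 3p arms of the miR-130/miR-301 family are known as the guides, and the family is known for roles in growth, differentiation and vascular cells.

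The mature sequences are shown because the seed sets which arms count as 1 family, and because the arms differ by so few bases that the mapping without mismatch had to separate them. They were taken from RefSeq on GRCm38.p6, which held 7 of the 8 members and not miR-301b-3p, and the seed is in capitals.
mmu-miR-130a-3p: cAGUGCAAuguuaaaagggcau
mmu-miR-130b-3p: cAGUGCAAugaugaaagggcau
mmu-miR-301a-3p: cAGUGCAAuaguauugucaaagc
mmu-miR-130a-5p: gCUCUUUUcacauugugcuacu
mmu-miR-130b-5p: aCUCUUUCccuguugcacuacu
mmu-miR-301a-5p: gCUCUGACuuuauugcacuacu
mmu-miR-301b-5p: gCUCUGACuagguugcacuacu
The 3 printed 3p arms share the seed AGUGCAA, and this run of bases occurs 1 time in each of the 4 hairpins. The 5p arms fall into 3 seeds, of which CUCUGAC is shared by miR-301a-5p and miR-301b-5p. Counted from the 5′ end, miR-130a-3p and miR-130b-3p differ by the 2 substitutions U11A and A13G, and miR-301a-5p and miR-301b-5p by U10A, U11G and A12G. None of the 7 sequences occurs in a second hairpin of the RefSeq table. The reverse complement of the guide seed, UUGCACU, searched on the mature strand only, starts at base 13 in miR-130b-5p, miR-301a-5p and miR-301b-5p and is absent from miR-130a-5p. Among the 1675 listed miRNA with a sequence, 0.537% hold it, these 3 included. Since a 5p arm forms a duplex with the 3p arm of its own hairpin, the motif in these arms is no separate result.

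In GENCODE M21 (GRCm38), Mir130b lies on chromosome 16 from 17124061 to 17124142 and Mir301b from 17124400 to 17124496, both on the minus strand and 257 nucleotides apart. Both lie in intron 1 of the protein-coding gene 2610318N02Rik, on the strand of that gene. The hairpin of miR-301a, annotated as Mir301, is on the plus strand of chromosome 11, between 87113004 and 87113089, in intron 1 of Ska2, which encodes a component of the spindle and kinetochore associated complex. Mir130a lies on chromosome 2 from 84741115 to 84741178 on the minus strand, outside other annotated genes, and the nearest protein-coding gene, Gm19426, is 991 nucleotides away.

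The libraries held between 2070204 and 4811010 reads counted on miRNA, of which the 8 members took between 0.105% and 0.198%. The labels of the libraries are in doubt. A second deposited table holds normalized values, and whole reads could be recovered from it. In it, the column named for the first WT library held the reads of the library labelled TgAD 1 for 674 of 674 miRNA, the column named for the second WT library held those of WT 1, and the column named for the first TgAD library held those of TgAD 2. The column named for the second TgAD library matched no count table. The count table of WT 2 matched no column, with at most 37 of 674 miRNA identical. With the columns taken by name, 0 of all tested miRNA, members included, and 0 hairpins passed the cutoffs given below. In the count tables TgAD 1 correlated best with TgAD 2 (Pearson's r across the tested miRNA 0.986, against 0.962 and 0.963 with the WT libraries), and the labels of the count tables were used. Fold changes of the 8 members, their arm ratios and the 3p, 5p and hairpin sums are given with and without TgAD 1. A fit without 1 library sees no spread between libraries of that genotype. Its p-values therefore cannot be set beside those from all libraries, and only its effect sizes are given. Of 6 miRNA known to mark neurons, miR-128-3p, miR-138-5p and miR-218-5p were abundant, but miR-124-3p had only 1 to 7 reads and both arms of miR-9 had 0 reads in every library, and how reads with several placements were counted is not given in the sources used here. The summed level of these 6 was 21121 to 35034 CPM (reads scaled to the normalized library size) in WT and 62005 to 86099 CPM in TgAD libraries, nearly all of it miR-128-3p. The list did not move together. The log2 fold change in TgAD neurons was 1.49 for miR-128-3p, -0.63 for miR-138-5p and 0.35 for miR-218-5p, and the latter 2 did not pass the cutoffs given below. Markers of endothelial cells (2 miRNA) and oligodendrocytes (2 miRNA) had 0 reads. So did miR-199a-3p, a mural marker, and miR-142a-3p, a myeloid marker whose 5p arm had 21 to 51 reads. With both arms of miR-9 at 0 too, a count of 0 is not read as absence of a cell type. The 2 markers of red blood cells summed to 1310 to 1331 CPM in WT and 646 to 957 CPM in TgAD libraries, nearly all of it miR-451a, the 3 of mural cells and fibroblasts to 718 to 901 and 756 to 827 CPM, the 3 of myeloid cells to 9.96 to 10.2 and 13.8 to 14.7 CPM, and the 2 of glial activation to 18039 to 23299 and 14766 to 15940 CPM. The last sum was nearly all miR-21a-5p (log2 fold change -0.46), while miR-146a-5p went the other way (0.20), and neither passed. The part of these cells in the results was not tested, and in bulk RNA fewer cells of a type and less RNA per cell cannot be told apart.

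The first question was which arms of the family differ between TgAD and WT neurons. With edgeR's quasi-likelihood test, 4 of the 8 members passed a log2 fold change of 0.6 in size and an adjusted p under 0.1. mmu-miR-301a-3p (log2 fold change -0.91) and mmu-miR-130a-5p (-1.79) fell in TgAD neurons, and mmu-miR-301b-5p (2.37) and mmu-miR-130b-5p (0.72) rose. Over all tested miRNA, 33.1% passed these cutoffs, 17.3% lower and 15.7% higher, and the median log2 fold change was 0.032. The family held calls in both directions, and with 8 members its share is not set apart from this background. The libraries of the genotypes did not overlap for 6 of the 8 members, against 63.1% of all tested miRNA.

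**Figure D1:**
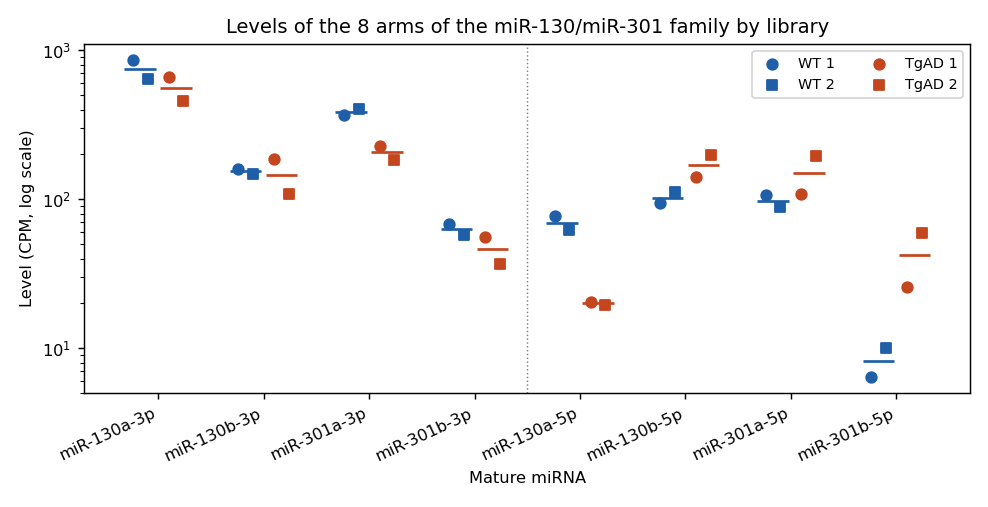
Level of each arm in CPM on a log axis, with 3p arms on the left and 5p arms on the right of the dotted line. Points are single libraries (circles replicate 1, squares replicate 2) and short lines are means over 2 libraries, and the 2 TgAD libraries of miR-130a-5p (19.6 and 20.4 CPM) lie under both WT libraries while those of miR-301b-5p (25.9 and 59.2 CPM) lie above them.

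Among the guides, miR-130a-3p was the most abundant member. Reads numbered 2030 in WT 1, 1872 in WT 2, 1805 in TgAD 1 and 1840 in TgAD 2, which is 864, 643, 658 and 458 CPM. TgAD 1 lay between the WT libraries, so the genotypes overlapped. Its log2 fold change was -0.43, with a 95% interval from -1.06 to 0.19 (adjusted p = 0.286, edgeR), which did not pass. It was -0.82 without TgAD 1, -0.16 without TgAD 2, -0.19 without WT 1 and -0.65 without WT 2. Once libraries were adjusted by GC content it was -0.026, which did not pass.

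miR-301a-3p, the guide from the Ska2 intron, was counted 868 times in WT 1, 1184 in WT 2, 630 in TgAD 1 and 740 in TgAD 2. Mean levels were 388 ± 26.3 CPM (WT) and 207 ± 32.2 CPM (TgAD; SD, n = 2 each), and the TgAD values of 230 and 184 CPM were below the WT values of 369 and 407 CPM. The log2 fold change was -0.91 (standard error 0.208, adjusted p = 0.0276, edgeR), so that it decreased by 46.7%. It was the only guide that passed with all 4 libraries in the main fit, and without TgAD 1 its log2 fold change was -1.17. When libraries were scaled by total counts, miR-130a-3p passed too, at -0.68, a scaling that moved the median of all tested miRNA to -0.23. GC content moved with the fold changes in these libraries, since the median log2 fold change was -0.76 over the 75 tested miRNA under 40% GC and 0.25 over the 113 at 55% or more. miR-301a-3p has 39.1% GC. After each library was corrected for GC content, its log2 fold change was -0.41 (adjusted p = 0.231, edgeR), so the call was lost.

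The guides of the clustered hairpins did not pass. For miR-130b-3p the reads were 376 (WT 1), 433 (WT 2), 509 (TgAD 1) and 434 (TgAD 2), and its TgAD libraries lay on either side of the WT libraries, at 186 and 108 CPM against 160 and 149 CPM. Its log2 fold change was -0.077, with a 95% interval from -0.79 to 0.63, and it was -0.61 without TgAD 1 and 0.30 without TgAD 2. For miR-301b-3p they were 161, 167, 154 and 147 in the same order. The TgAD values of 56.1 and 36.6 CPM were below the WT values of 68.5 and 57.4 CPM, with WT 2 and TgAD 1 close together, and the log2 fold change of -0.45 had a 95% interval from -1.16 to 0.26 (adjusted p = 0.324, edgeR). Without TgAD 1 it was -0.88.

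Because the guides share a seed, their sum gives the level at which that seed was present. The summed 3p level was 1462 CPM in WT 1, 1256 in WT 2, 1129 in TgAD 1 and 786 in TgAD 2. Both TgAD libraries were lower, with a log2 fold change of -0.52, and the exact two-sided permutation test gave p = 0.333, the smallest that 2 against 2 libraries allow. Without TgAD 1 the log2 fold change was -0.79. The sum was not corrected for GC content, since miR-301b-3p has no sequence. With that correction the single guides were at -0.026 (miR-130a-3p), -0.41 (miR-301a-3p) and 0.045 (miR-130b-3p), so the fall of the sum is given without this correction only. miR-130a-3p made up between 51.2% and 59.1% of the 3p reads of the family in each library, and miR-301a-3p between 25.3% and 32.4% in WT and between 20.3% and 23.4% in TgAD libraries. Of the other listed miRNA with the seed AGUGCAA, miR-130c, miR-721, miR-6341 and miR-6389, none had a read (0 in each library), and 3 reads, the limit such a count allows, correspond to 0.746 to 1.28 CPM depending on the library.

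Among the 5p arms, miR-130a-5p stood opposite to the rest. WT 1 held 181 of its reads, WT 2 180, TgAD 1 56 and TgAD 2 79, and mean levels were 69.4 ± 10.8 CPM (WT) and 20.0 ± 0.541 CPM (TgAD; SD, n = 2 each). Both TgAD values were far below both WT values. The log2 fold change was -1.79 (standard error 0.259, adjusted p = 0.00934, edgeR), so that it decreased by 71.1%. miR-130a-5p was the 1 member past the more stringent cutoffs of 1 and 0.01, which 4.44% of all tested miRNA passed. This call lay at the edge, since with RLE normalization its adjusted p was 0.0108 (edgeR) and 0 miRNA passed these cutoffs. The log2 fold change was -1.91 without TgAD 1, and -1.39 with the correction for GC content (adjusted p = 0.0197, edgeR).

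miR-301b-5p was the scarcest member in WT neurons. WT 1 held 15 of its reads, WT 2 29, TgAD 1 71 and TgAD 2 238. Both TgAD values exceeded both WT values, but the TgAD libraries differed between themselves more than the WT libraries did, at 25.9 and 59.2 CPM against 6.38 and 9.96 CPM. Its log2 fold change was 2.37 (standard error 0.490, adjusted p = 0.0238, edgeR). With each library left out in turn it ranged from 1.67 (without TgAD 2) to 2.73 (without TgAD 1). With the correction for GC content it was 2.23 (adjusted p = 0.0229, edgeR).

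miR-130b-5p, from the neighbouring hairpin, was counted 221 times in WT 1, 324 in WT 2, 386 in TgAD 1 and 795 in TgAD 2. Mean levels were 103 ± 12.2 CPM (WT) and 169 ± 40.3 CPM (TgAD; SD, n = 2 each), and the genotypes did not overlap. The change on the log2 scale, 0.72 with a standard error of 0.252, lay near the cutoff (adjusted p = 0.0831, edgeR). It was 0.85 without TgAD 1, 0.62 without WT 1, 0.83 without WT 2 and 0.48 without TgAD 2, the last under the cutoff in size. When libraries were scaled by total counts and not by edgeR's TMM factors it was 0.44 (adjusted p = 0.305, edgeR) and did not pass. That scaling moved the median of all tested miRNA to -0.23, so relative to this median miR-130b-5p was still higher.

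Reads of miR-301a-5p numbered 251 in WT 1, 258 in WT 2, 296 in TgAD 1 and 780 in TgAD 2. TgAD 1, at 108 CPM, was hardly above WT 1, at 107 CPM, while TgAD 2 reached 194 CPM. The log2 fold change of 0.63 had a 95% interval from -0.14 to 1.40 (adjusted p = 0.214, edgeR) and did not pass. It passed with the correction for GC content, at 1.03 (adjusted p = 0.0582, edgeR). Without TgAD 1 it was 0.89, and without TgAD 2 it was 0.17.

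**Figure D2:**
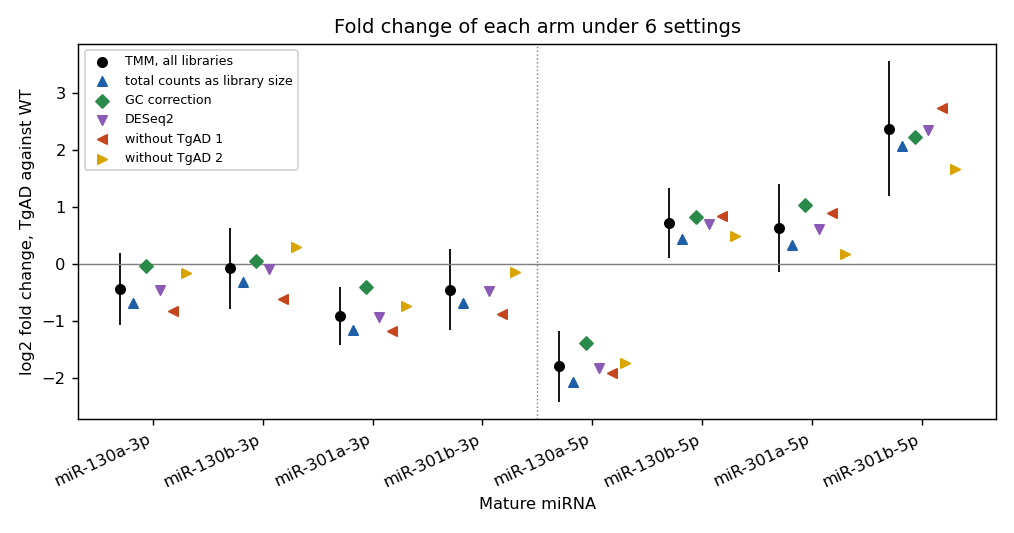
log2 fold change of each arm, TgAD against WT, with all libraries (black points, bars are 95% intervals from edgeR) and under 5 other settings. miR-130a-5p stays under 0 and miR-130b-5p, miR-301a-5p and miR-301b-5p stay above 0 in the settings shown, while miR-130b-3p lies on both sides of 0 and miR-301b-3p has no GC-corrected value.

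The summed 5p level was 284 CPM in WT 1, 272 in WT 2, 295 in TgAD 1 and 470 in TgAD 2, a log2 fold change of 0.42 (exact two-sided permutation test, p = 0.333, the smallest possible). It rested on TgAD 2, since without that library it was 0.085, and 0.76 without TgAD 1. The makeup of the 5p reads changed more than their sum. miR-130a-5p was 27.1% of the 5p reads of the family in WT 1 (95% Wilson interval 23.9% to 30.6%) and 22.8% in WT 2 (20.0% to 25.8%), but 6.92% in TgAD 1 (5.37% to 8.88%) and 4.18% in TgAD 2 (3.36% to 5.17%). miR-301b-5p moved the other way, from 2.25% and 3.67% in WT to 8.78% and 12.6% in TgAD libraries. miR-301a-5p and miR-301b-5p, which share the seed CUCUGAC, summed to 113, 98.6, 134 and 253 CPM in WT 1, WT 2, TgAD 1 and TgAD 2.

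Ordered by level, WT neurons held miR-130a-3p, miR-301a-3p, miR-130b-3p, miR-130b-5p, miR-301a-5p, miR-130a-5p, miR-301b-3p and miR-301b-5p, from 753 to 8.17 CPM. The libraries overlapped between miR-130b-5p and miR-301a-5p and between miR-130a-5p and miR-301b-3p. Within each WT library, however, miR-130a-5p (77.0 and 61.8 CPM) was above miR-301b-3p (68.5 and 57.4 CPM). In TgAD neurons miR-130a-3p was again first. miR-301a-3p, miR-130b-5p, miR-301a-5p and miR-130b-3p followed with means of 207, 169, 151 and 147 CPM, and each overlapped with its neighbour in this order. The order of these means held in neither TgAD library. Of these arms miR-301a-3p was the highest in TgAD 1 (230 CPM) and miR-130b-5p in TgAD 2 (198 CPM). Further down, miR-301b-3p and miR-301b-5p overlapped at 46.3 and 42.5 CPM, and miR-130a-5p was last at 20.0 CPM. The order is that of reads per miRNA, and the 7 arms with a sequence are 22 or 23 bases long.

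The second question was whether the balance between the arms of a hairpin changes. The ratio of 5p to 3p reads was taken within each library, where it does not depend on the library size or the normalization, and was compared by limma over the 197 hairpins with at least 10 reads on each arm. In 3 of the 4 hairpins of the family the ratio differed between genotypes past a log2 difference of 0.6 and an adjusted p of 0.1, toward the 5p arm for miR-301a and miR-301b and toward the 3p arm for miR-130a. Over all hairpins 24.4% passed, 10.2% toward 5p and 14.2% toward 3p, and the median difference was -0.18. For all 4 hairpins the genotypes did not overlap, against 62.4% of all hairpins.

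**Figure D3:**
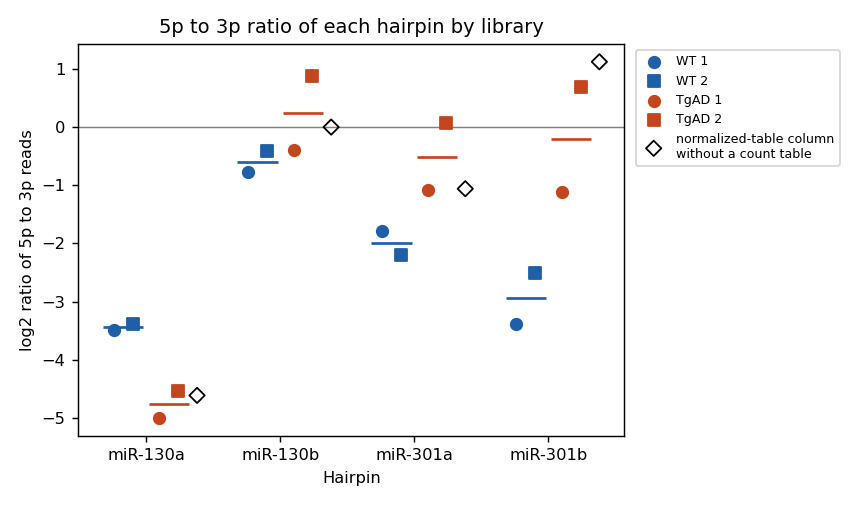
log2 ratio of 5p to 3p reads of each hairpin, where 0 means equal reads on both arms. Filled points are single libraries, short lines are means over 2 libraries, and open diamonds are the column of the normalized table that matches no count table; the TgAD libraries lie under the WT libraries for miR-130a and above them for the other hairpins.

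For miR-301b, 15 of 176 reads in WT 1 and 29 of 196 in WT 2 came from the 5p arm, or 8.52% (95% Wilson interval 5.23% to 13.6%) and 14.8% (10.5% to 20.4%). In the TgAD libraries these were 71 of 225 and 238 of 385 reads, or 31.6% (25.8% to 37.9%) and 61.8% (56.9% to 66.5%). In TgAD 2 the 5p arm thus outnumbered the 3p arm. The log2 ratio differed by 2.73 (standard error 0.718, adjusted p = 0.0638, limma), the 5th largest difference in size of the 197 hairpins. It was 3.64 without TgAD 1, 1.83 without TgAD 2, 2.30 without WT 1 and 3.17 without WT 2. Each of these fits saw the spread of 1 pair only, so no call is read from them. The SD of the log2 ratio was 0.619 in the WT pair and 1.28 in the TgAD pair.

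For miR-301a, the ratio of 5p to 3p reads was 0.289 in WT 1, 0.218 in WT 2, 0.470 in TgAD 1 and 1.05 in TgAD 2. The TgAD values did not overlap with the WT values, and TgAD 2 had about equal reads on both arms. The log2 difference was 1.49 (standard error 0.463, adjusted p = 0.0904, limma), just inside the cutoff. It was 2.07 without TgAD 1, and 0.90 to 1.69 without any 1 of the other libraries. No call is read from these fits, and the fit without TgAD 1 left out the larger spread of the TgAD pair. The SD of the log2 ratio was 0.289 in the WT pair and 0.823 in the TgAD pair.

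For miR-130a, the ratio was 0.0892 in WT 1, 0.0962 in WT 2, 0.0310 in TgAD 1 and 0.0429 in TgAD 2. The 3p arm was thus the dominant arm in all libraries, and its share was higher in both TgAD libraries. The log2 difference was -1.34 (standard error 0.322, adjusted p = 0.0617, limma), with a 95% interval from -2.14 to -0.53 that does not touch the interval of miR-301b, from 0.95 to 4.52. The log2 difference was -1.10 without TgAD 1, -1.57 without TgAD 2, -1.39 without WT 1 and -1.28 without WT 2. No call is read from these fits.

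For miR-130b, the ratio was 0.588 in WT 1, 0.748 in WT 2, 0.758 in TgAD 1 and 1.83 in TgAD 2. TgAD 1 lay next to WT 2, and the log2 difference of 0.83 had a 95% interval from -0.39 to 2.05 (adjusted p = 0.312, limma). It was 1.46 without TgAD 1 and 0.19 without TgAD 2. No call is read from the fit without TgAD 1, since the SD of the log2 ratio was 0.246 in the WT pair and 0.899 in the TgAD pair.

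**Figure D4:**
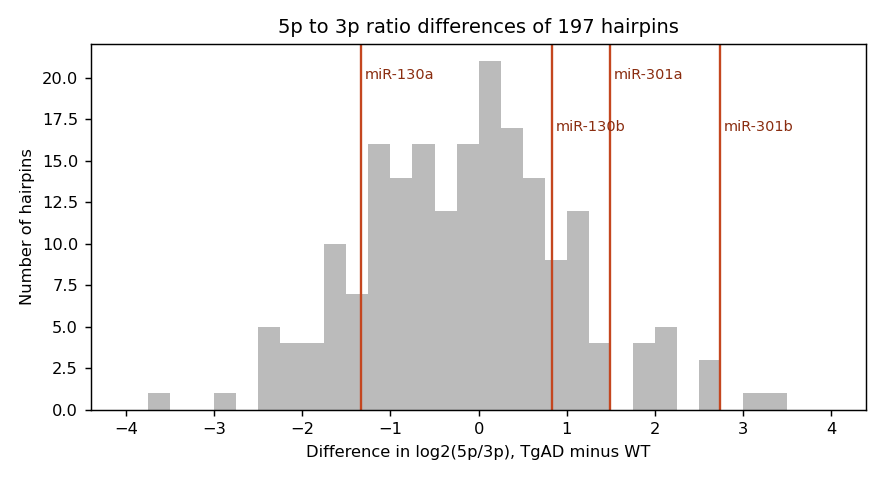
Histogram of the difference in the log2 ratio of 5p to 3p reads, TgAD minus WT, over the 197 hairpins with both arms measured; the vertical axis counts hairpins and vertical lines mark the family. miR-301b (2.73) lies in the upper tail, and miR-130a (-1.34) lies on the other side of the median of -0.18.

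The arms of miR-130a both have 40.9% GC, those of miR-130b both 45.5% and those of miR-301a 40.9% (5p) and 39.1% (3p), so that a correction for GC content could hardly move these ratios. The miR-301b ratio could not be corrected, since its 3p arm has no sequence in the table. Over all 197 hairpins, the arm with fewer reads gained on the other in 12.7% and lost in 11.7% of hairpins past the cutoffs, with a median difference of -0.035.

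The sum of both arms gives the level of a hairpin's products. For miR-301b it was 74.9 and 67.3 CPM in WT against 82.0 and 95.7 CPM in TgAD neurons, and for miR-130b 254 and 260 CPM against 326 and 306 CPM. For miR-301a it was 476 and 495 CPM in WT and 337 and 378 CPM in TgAD libraries, and for miR-130a 941 and 705 CPM against 678 and 477 CPM. The genotypes did not overlap for any of the 4 sums, higher in TgAD neurons for the clustered pair and lower for the other 2 hairpins, while such sums did not overlap in 60.4% of all 197 hairpins. Without TgAD 1 the log2 fold changes of the sums were -0.77 for miR-130a, 0.25 for miR-130b, -0.36 for miR-301a and 0.43 for miR-301b, next to -0.52, 0.30, -0.44 and 0.32 with all libraries. With all libraries, the exact two-sided permutation test for each gives p = 0.333 and cannot go lower. The sums were not corrected for GC content. With that correction, the log2 fold changes of the 3p and 5p arms were -0.026 and -1.39 for miR-130a and -0.41 and 1.03 for miR-301a. For miR-130b they were 0.045 and 0.83, and miR-301b-3p has no corrected value.

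The third question was whether miR-130b and miR-301b, which lie next to each other in 1 intron, keep their ratio. On the 3p arms the ratio moved little. miR-130b-3p had 2.34 (WT 1), 2.59 (WT 2), 3.31 (TgAD 1) and 2.95 (TgAD 2) times the reads of miR-301b-3p, a log2 difference of 0.34 with no overlap. On the 5p arms the ratio of miR-130b-5p to miR-301b-5p was 14.7 in WT 1, 11.2 in WT 2, 5.44 in TgAD 1 and 3.34 in TgAD 2. The genotypes did not overlap, and the ratio was 3.01-fold lower in TgAD neurons (log2 difference -1.59). It was -1.94 without TgAD 1, -1.24 without TgAD 2 and -1.26 with the correction for GC content. The ratio rests on the 15 and 29 reads of miR-301b-5p in WT 1 and WT 2. Such ratios were not taken for other pairs of hairpins, so no share over all pairs stands beside the lack of overlap. For either arm the exact two-sided permutation test gave p = 0.333, the smallest possible with 2 against 2 libraries.

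Outside the family, the 3 tested miRNA whose centred log2 CPM over the 4 libraries lay nearest to the summed 3p level were miR-362-3p, miR-15a-3p and miR-181a-5p, at Euclidean distances of 0.0971, 0.0985 and 0.106. Those nearest to the summed 5p level were miR-3093-5p, miR-351-5p and miR-106b-3p, at 0.0824, 0.160 and 0.193. With 4 libraries such nearness is a description only.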

How the data were processed

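The deposited counts, 1 table per library, come from the authors' processing of 50 bp reads: adapters were trimmed, Bowtie2 placed reads on GRCm38 allowing no mismatch, and HTSeq counted them against the mature miRNA of miRBase. Tool versions are not given in the sources used here. The deposited normalized table holds a signal, which the authors made from counts with size factors; 100.0% of its values were whole multiples of 1 read within 0.01, and it was used only for the comparison of columns and 1 alternative.

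Counts were normalized by TMM, filtered by filterByExpr and tested with edgeR 4.0.16 in R 4.3.3 (quasi-likelihood, genotype only, Benjamini-Hochberg adjustment over 496 miRNA), at the paper's cutoffs of 0.6 and 0.1, and 1 and 0.01. Log2 ratios of arms (pseudocount 0.5) were tested with limma 3.58.1 (trended eBayes) over 197 hairpins. Figures used Python 3.11.15 and matplotlib 3.10.9. Wilson intervals and the floor of 3 reads cover counting error only. The scripts were tested on simulated data.

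The members and lists were chosen with earlier results of these data known. Named miRNA were the 8 members, other miRNA with the guide seed, marker lists and the 3 nearest miRNA to each summed level. Alternatives were RLE normalization, total counts, other filters, DESeq2 1.42.0, edgeR's robust option, a GC correction (local regression, span 0.75, prior count 2), a replicate block, another pseudocount, another arm test in edgeR and leaving out each library; the normalized table by column name, a fit on miRNA with a sequence, and hairpin sums without TgAD 1, were added after the data were seen.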

Additional observations from a re-analysis of the deposited data

Results flagged for a closer look

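The column of the normalized table that is named for the second TgAD library, and matches no count table, held 1926952 reads over 674 miRNA and entered only the alternative that takes the columns of that table by name. It is singled out because its log2 ratio of 5p to 3p reads lay above both WT libraries for 3 hairpins, at 1.12 for miR-301b (55 and 25 reads), -1.06 for miR-301a (77 and 161 reads) and 0 for miR-130b (168 and 168 reads). For miR-130a it was -4.61 (22 and 549 reads), under both WT libraries and between the TgAD libraries. The 5p arm took 68.8% of the miR-301b reads in it (95% Wilson interval 57.9% to 77.8%). Its ratio of miR-130b to miR-301b was 3.05 on the 5p arms and 6.72 on the 3p arms, the latter outside the range of the 4 count tables. Since 1 column named for WT holds the reads of TgAD 1, the genotype of this column is not certain, and the difference was not tested.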

How the results depend on the processing

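With all 4 libraries and genotype as the only factor, 4 of the 8 members passed in each of 8 alternatives. They were not always the same members: with total counts as library size miR-130a-3p passed at -0.68 and miR-130b-5p did not, and with the GC correction miR-301a-5p passed and miR-301a-3p did not. The direction of miR-130b-3p turned, to 0.045 with the GC correction and 0.30 without TgAD 2, against -0.61 without TgAD 1. miR-301b-3p has no value there or in the fit on miRNA with a sequence. Leaving out each library gave arm differences of -1.57 to -1.10 for miR-130a and 0.19 to 1.46 for miR-130b. They were 0.90 to 2.07 for miR-301a and 1.83 to 3.64 for miR-301b. Such a fit assumes that a lone library varies like the others, so no call is read from it. With the columns of the normalized table taken by name, WT is TgAD 1 and WT 1, TgAD is TgAD 2 and the unmatched column, and WT 2 is not used. These changes were made together, and their separate parts were not tested. In that setting 0 members, 0 of 480 miRNA (54 with an unadjusted p under 0.05, edgeR) and 0 of 190 hairpins (15 with an unadjusted p under 0.05, limma) passed. There the arm differences were -0.33 for miR-130a, 0.95 for miR-301a and 3.15 for miR-301b, the summed 3p level -0.81, and the 3p ratio of miR-130b to miR-301b 0.68. The replicate numbers of the labels are shared between genotypes without a stated pairing. The differences between replicates 1 and 2 of WT and of TgAD correlated at 0.216 across tested miRNA, a hint from 2 pairs only. A fit with the replicate number as a block called 4 members and 188 miRNA, and 2 hairpins, with miR-301a at 1.49 (adjusted p = 0.111, limma). The block with the GC correction called 3 members and 97 miRNA. Next to the GC correction alone it lacked miR-301a-5p, at 0.98 (adjusted p = 0.12, edgeR). Without the GC correction, the block changed no other call of a member or hairpin. At the stringent cutoffs 22 miRNA passed, against 0 to 102 under the other settings. Total counts as library size turned the split of calls from 86 lower and 78 higher to 122 lower and 43 higher. Leaving out each library gave -0.79 to -0.26 for the summed 3p level, 0.085 to 0.76 for the summed 5p level, and 0.26 to 0.43 (3p) and -1.94 to -1.24 (5p) for the ratio of miR-130b to miR-301b. Depth limits miR-301b-5p most, with 15 and 29 reads in WT.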
